A study of Mus musculus with 6 samples.

Results

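Mammalian cells handle alcohols, aldehydes and ketones with several families of dehydrogenases and reductases, and 52 genes of these families were followed here in mouse intestinal organoids with and without induced deletion of the transcription factor Hnf4a. The genes were taken by symbol alone, as every row of the deposited table whose symbol begins with Aldh, Adh, Rdh, Dhrs or Akr followed by a digit, leaving out Aldh1a1 and Dhrs3. That rule took 52 of 18448 rows. All 52 identifiers were found in the GENCODE M21 annotation of GRCm38, 51 as protein-coding genes and 1, Dhrs13os, as an antisense RNA beside Dhrs13 that makes no enzyme. A filter on low counts kept 50 of the 52 for testing and removed Rdh9 and Rdh12.

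The study measured poly(A) RNA of jejunal organoids, small three-dimensional cultures grown from the epithelium of the mouse jejunum, in 6 libraries. Every organoid in both groups came from the C57BL/6 strain and carried the genotype Villin-CreERT2; Hnf4aflox/flox, in which the villin promoter drives, in intestinal epithelial cells, a Cre recombinase that 4-hydroxytamoxifen (4OHT) activates. In the first group, 3 libraries came from organoids given the vehicle DMSO. In the second, 3 came from organoids given 0.5 µM 4OHT for 24 h to delete Hnf4a. Both groups received recombinant mouse Wnt3A at 200 ng/mL and were collected at day 2 following the split. Because 4OHT, active Cre and the deletion came together, they cannot be told apart as sources of a difference. The labels do not say whether the 3 libraries of a group came from separate mice or cultures, so each p-value rests on a spread among libraries that may be only technical.

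Hnf4a is a nuclear receptor that binds DNA in enterocytes and controls genes of absorption and metabolism. Among the genes followed here, alcohol dehydrogenases (Adh) and many retinol dehydrogenases (Rdh) and short-chain dehydrogenases (Dhrs) interconvert alcohols with aldehydes or ketones. Aldehyde dehydrogenases (Aldh) oxidise aldehydes to acids, and aldo-keto reductases (Akr) reduce aldehydes and ketones to alcohols. Retinol is a substrate shared by several of these families, whose combined action sets how much retinoic acid an intestinal cell can make.

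The libraries held 31537100 to 40276242 counts each, and the 52 genes took 0.386% to 0.6% of the counts of a library. Values below are CPM, counts scaled to a common library size with the trimmed mean of M-values, unless another scale is named. Hnf4a itself had 839.8, 846.2 and 1021 CPM in the DMSO libraries and 435.9, 423.7 and 481.7 CPM in the 4OHT libraries. The groups did not overlap, and Hnf4a RNA fell to 0.496 of the DMSO mean (log2 fold change -1.01, SE 0.0997, adjusted p = 0.0124, edgeR). Leaving out any 1 library other than DMSO replicate 3 took that adjusted p to between 0.0572 and 0.0951 (edgeR), with a log2 fold change of -1.07 to -0.98. The exons flanked by loxP sites are not given in the sources used here, so reads from parts of the gene that stay after recombination may be among these counts. Epithelial markers summed to 12060 to 16570 CPM in DMSO and 14990 to 18330 CPM in 4OHT, and all 17 enterocyte markers were in the table. Of markers of other tissues, Col1a1 and Pdgfra for fibroblasts summed to 0.0975 to 0.299 CPM in DMSO and 0.309 to 0.458 CPM in 4OHT, Ptprc, Cd68 and Lyz2 for immune cells to 2.57 to 3.08 CPM and 3.84 to 5 CPM, and Pecam1 for endothelium to 0.306 to 0.357 CPM and 0.344 to 0.478 CPM. The other 9 markers fixed for these tissues were not analysed here. In bulk RNA, fewer cells of a type and less RNA per cell cannot be told apart.

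DMSO replicate 3 stood apart from the other DMSO libraries. A chi-square of the counts divided by its degrees of freedom, which is near 1 for libraries that differ by counting error only, was 69.5 and 63.7 between DMSO replicate 3 and DMSO replicates 1 and 2, and 8.52 between DMSO replicates 1 and 2. Libraries with the same replicate number deviated from their group means together, with correlations across genes of 0.36, 0.44 and 0.49, so a shared number was treated as a pair. Each result is therefore given from the fit that ignores the replicate number and, where the call changes, also from one with that number as a block. Leaving out 1 library of a pair keeps the other, so values from such omissions also hold the deviation of the library that stays.

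Several of these genes lie within the same stretch of chromosome as close copies of themselves, whose reads could be confused, so the coding sequences of 3 pairs are compared. The stretch shown differs most among those searched, which were free of gaps and began at a codon of the first gene. Coding sequences are from GENCODE M21 transcripts, each stretch is 60 bases, 5′ to 3′, and capitals mark the bases that differ between the paired genes. Aldh3b2 and its neighbour Aldh3b3 were 90.5% identical over their coding sequences, and bases 46 to 105 differed at 21 places.
Aldh3b2: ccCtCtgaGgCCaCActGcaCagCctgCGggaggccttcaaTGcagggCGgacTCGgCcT
Aldh3b3: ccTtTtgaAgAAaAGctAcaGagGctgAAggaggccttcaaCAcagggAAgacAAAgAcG
Akr1b8 was 85.4% identical to its neighbour Akr1b10, which lies between it and Akr1b7. Akr1b8 and Akr1b7, whose differences between the groups had opposite signs, were 84.8% identical, and bases 883 to 942 differed at 26 places.
Akr1b8: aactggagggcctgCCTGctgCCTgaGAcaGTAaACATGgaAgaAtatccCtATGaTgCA
Akr1b7: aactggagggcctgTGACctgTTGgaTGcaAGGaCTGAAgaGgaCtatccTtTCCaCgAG
Akr1c12 and Akr1c13 were the closest pair compared, with 96.2% identity, and no searched stretch of 60 bases differed at more than 9 places (bases 343 to 402 are shown).
Akr1c12: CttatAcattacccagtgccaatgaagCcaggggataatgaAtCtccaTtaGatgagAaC
Akr1c13: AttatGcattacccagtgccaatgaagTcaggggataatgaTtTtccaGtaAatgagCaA
Of all 50-base stretches of its transcript, Aldh3b2 shared 24.2% exactly with another gene, 23.5% with Aldh3b3. Akr1b8 shared 3.21%, and Aldh3a1, Aldh1a3, Akr7a5 and Aldh18a1 shared none. How reads that match more than 1 gene were counted is not given in the sources used here, so the values of Aldh3b2, Aldh3b3, Akr1c12 and Akr1c13 are uncertain to that extent.

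Promoters are shown for 3 genes on which the results below turn, as the 250 bases before the start site from RefSeq (GRCm38.p6). RefSeq had a window, 250 bases before to 50 after a start site, for 43 of the 52 genes. A motif with the letters CAAAGTNCA, a form of the direct repeat that HNF4 proteins bind, was searched on both strands of these 300-base windows and was found in 1 of 43 genes, Adh4 (2.33%, against 1.64% of all 27025 genes with a window). In the Adh4 promoter at chr3:138415247-138415496, plus strand, the capitals mark that match, which lies on the reverse strand and begins 228 bases before the start site.
Adh4: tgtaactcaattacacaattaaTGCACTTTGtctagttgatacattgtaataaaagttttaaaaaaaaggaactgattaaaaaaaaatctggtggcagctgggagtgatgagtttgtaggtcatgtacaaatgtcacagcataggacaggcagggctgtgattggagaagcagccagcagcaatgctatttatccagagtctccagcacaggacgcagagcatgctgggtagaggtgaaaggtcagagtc
Akr1b8 (chr6:34353896-34354145, plus strand) and Akr1b7 (chr6:34412112-34412361, plus strand) are paralogues whose RNA differed in opposite directions between the groups, and their promoters held no match to any motif searched, so they carry no capitals.
Akr1b8: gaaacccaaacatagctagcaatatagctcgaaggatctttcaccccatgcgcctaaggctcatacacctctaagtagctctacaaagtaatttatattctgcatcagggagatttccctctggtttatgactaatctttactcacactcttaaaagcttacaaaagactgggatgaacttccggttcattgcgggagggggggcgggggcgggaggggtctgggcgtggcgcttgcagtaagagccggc
Akr1b7: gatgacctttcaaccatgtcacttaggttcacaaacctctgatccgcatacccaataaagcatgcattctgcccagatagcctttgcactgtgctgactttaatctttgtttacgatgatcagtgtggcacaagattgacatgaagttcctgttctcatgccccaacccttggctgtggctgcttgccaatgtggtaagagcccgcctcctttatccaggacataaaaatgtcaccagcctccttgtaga
A second motif, TGACNNNGC, the core of the antioxidant response element, was in the windows of Adh6a, Akr1c19, Aldh9a1 and Rdh14, 9.3% of the 43 genes against 14% of all genes with a window. Another, TGANTCA, the AP-1 site, was in those of Adh7, Dhrs9, Rdh1 and Rdh9, 9.3% against 8.97%. None of the matches to TGACNNNGC overlapped a match to TGANTCA. A match of letters is a description of the sequence only.

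Expression levels of the 52 genes spanned from 0.0425 to 260.9 CPM per kilobase of annotated exon, a scale that allows genes of different length to be compared. Aldh1b1, a mitochondrial aldehyde dehydrogenase found in intestinal crypts, had the highest level at 260.9 CPM per kilobase. It was followed by the aldehyde reductase Akr1a1 (176.4), Akr1c13 (138.7), Akr1b8 (123) and Aldh18a1 (88.6), which makes the precursor of proline. Adh1 (83.6), Dhrs4 (83.3), Akr1c12 (78.6), Aldh1a7 (64.1), Aldh9a1 (59.2), Rdh10 (50.2) and mitochondrial Aldh2 (49.4) completed the first 12. The range of library values of each of these 12 overlapped that of the next in order, as the plot of levels by library shows. At the other end, Aldh3b3, Rdh12, Rdh16 and Rdh9 were each under 0.1 CPM per kilobase on average. Rdh9 had 2 to 9 counts in a library, and 92.3% of its 50-base stretches were shared with other genes. Rdh12, a retinal reductase of the photoreceptors, had 5 to 9 counts in a library.

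**Figure D1:**
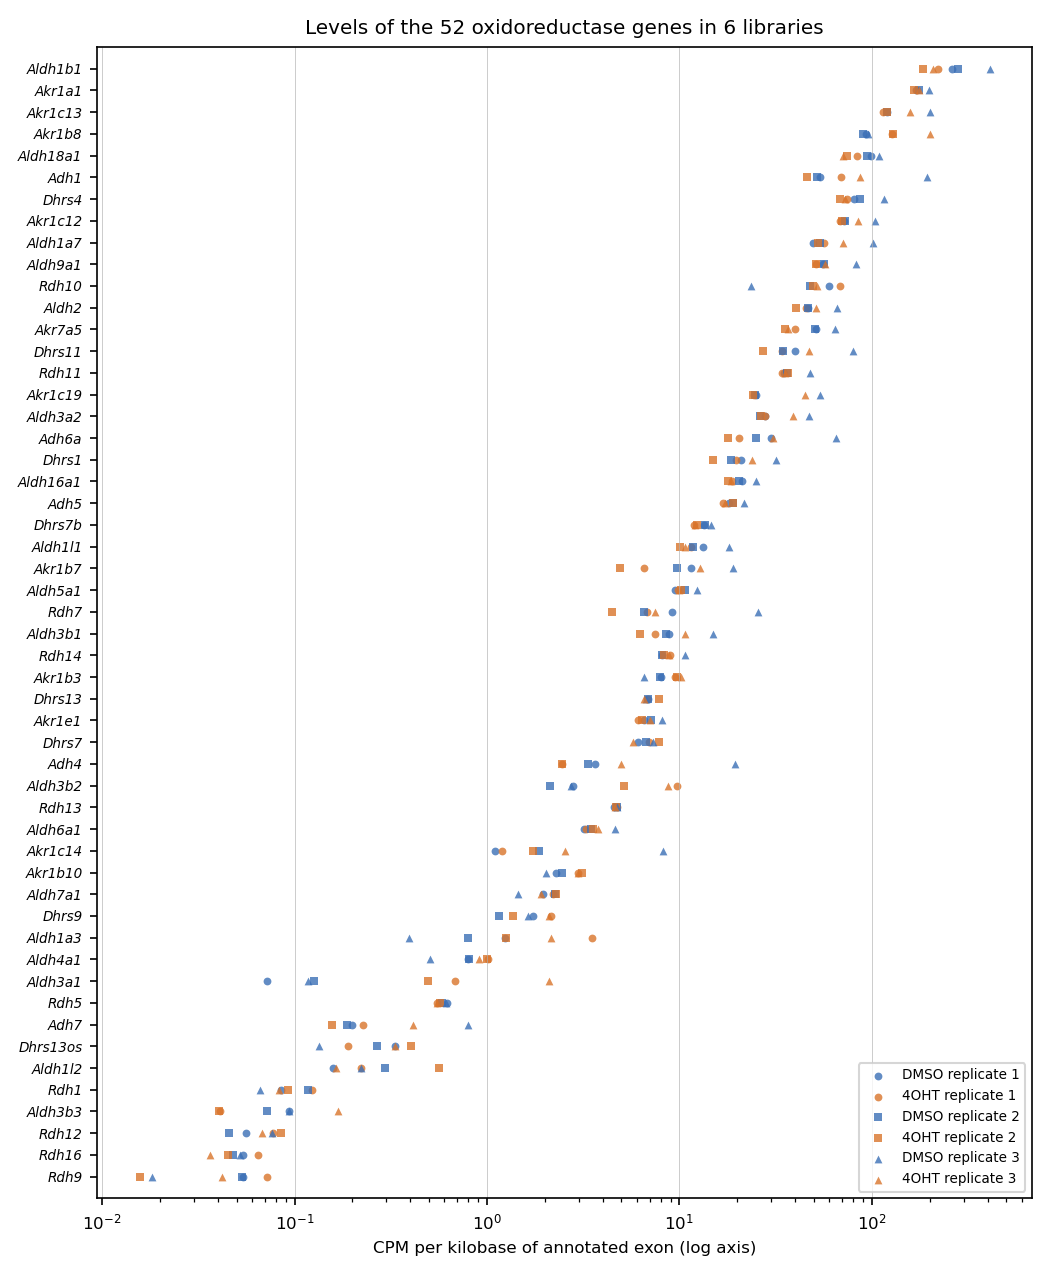
Level of each of the 52 genes in CPM per kilobase of annotated exon (log axis), one row per gene in order of mean level, blue for DMSO and orange for 4OHT, with a marker shape for each replicate number. Aldh1b1 is at the top and Rdh9 at the bottom, and the blue triangles of DMSO replicate 3 lie to the right of the other points for many genes, Adh1, Adh4 and Akr1c14 among them.

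Across all 50 tested genes, 1 changed between 4OHT and DMSO without the block. Aldh3b2 rose, and none fell, against 0.701% of the 14544 tested genes that rose, 0.206% that fell and 0.908% that passed in either direction (edgeR quasi-likelihood test, Benjamini-Hochberg adjusted p under 0.05). Before adjustment, p was under 0.05 for 13 genes, 6 of them higher with 4OHT and 7 of them lower (edgeR). Among all 14544 tested genes, that held for 1258 that were higher and 923 that were lower. Once the replicate number was a block, 4 genes rose (Aldh3b2, Aldh3a1, Aldh1a3 and Akr1b8), 8% of the 50 against 3.99% of all tested genes. With the same block 5 fell (Akr7a5, Aldh18a1, Akr1b7, Adh6a and Aldh3b1), 10% against 3%. In 15 genes the 3 libraries of one group lay wholly above those of the other: 7 with 4OHT higher (14%, against 12.5% of all tested genes) and 8 with 4OHT lower (16%, against 10.1%). DESeq2 called 6 genes higher (12%, against 3.62%) and 3 lower (6%, against 1.94%), and limma-voom called 0 of the 50 and 123 genes in all. The median log2 fold change of the 50 genes was -0.15, beside -0.004 for all tested genes, with 35 negative and 15 positive values. This median was 0.0013 without DMSO replicate 3 and -0.02 without both replicate 3 libraries (-0.03 with the block). Of the 50 genes, 20 were lower with 4OHT in all 3 pairs and 10 were higher in all 3. Among all 14544 tested genes, 3569 were lower in all 3 pairs and 3681 were higher.

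**Figure D2:**
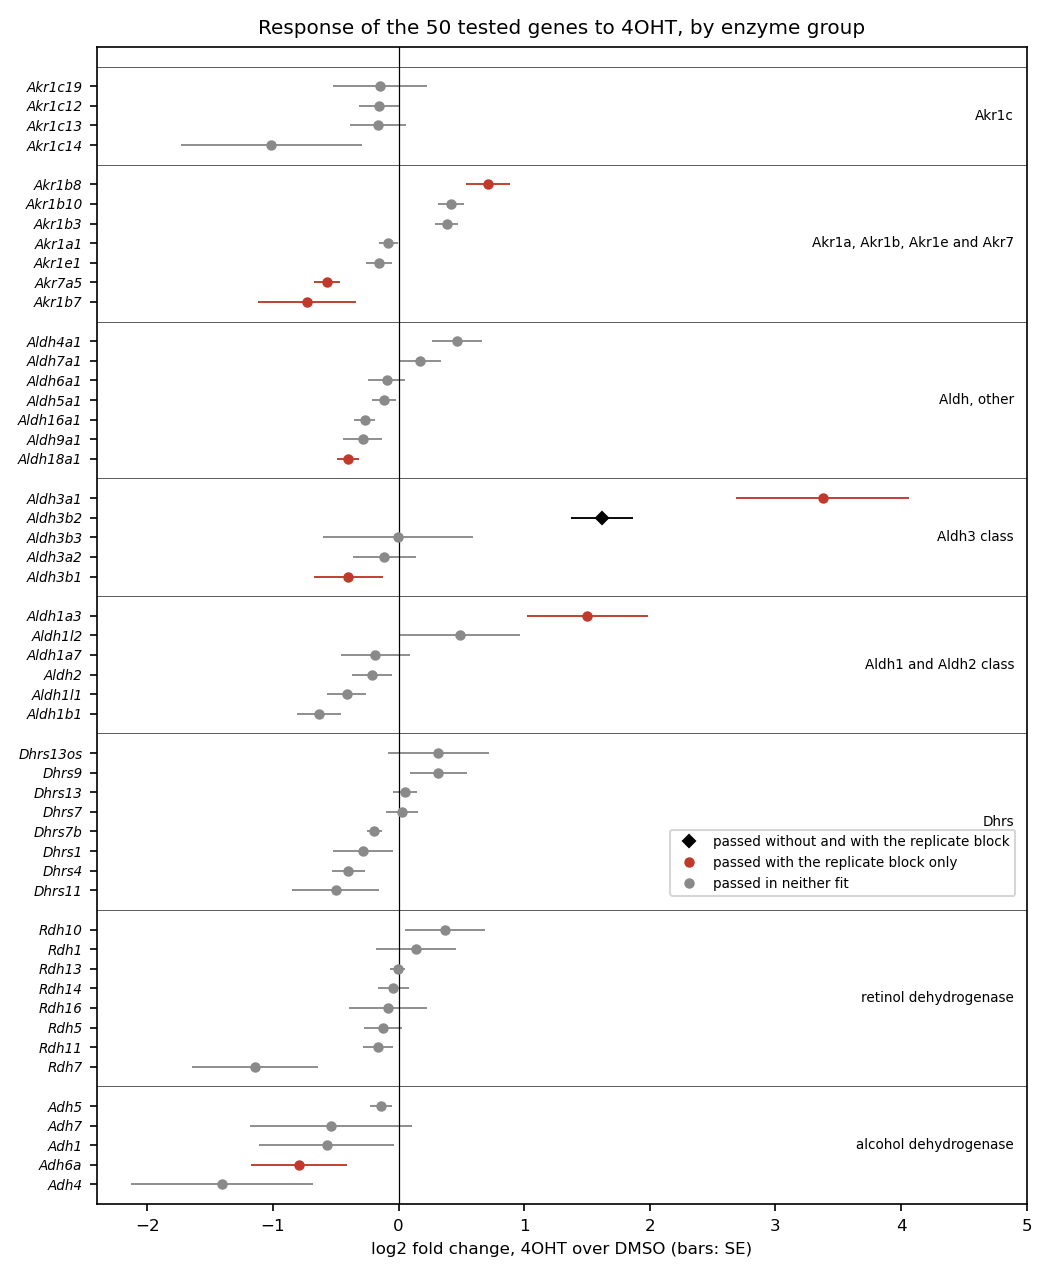
Log2 fold change of 4OHT over DMSO for the 50 tested genes, grouped by enzyme family, with bars of 1 SE from the fit without the replicate block. The black diamond is Aldh3b2, which passed without and with the block, red points are the 8 genes that passed with the block only, and grey points passed in neither fit. Aldh3a1, Aldh3b2 and Aldh1a3 lie far to the right, and all 5 alcohol dehydrogenases and all 4 Akr1c genes lie left of 0.

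The Aldh3 class oxidises medium- and long-chain fatty and aromatic aldehydes. It held Aldh3a1, with the largest log2 fold change of all 50, and Aldh3b2, the 1 gene that passed without the block. Aldh3b2, which acts on long-chain aldehydes, at chr19:3972328-3981646, had 6, 4.55 and 5.85 CPM in the DMSO libraries and 20.7, 11 and 18.7 CPM in the 4OHT libraries. Every 4OHT library was above every DMSO library, and the mean of 3 libraries rose 3.07-fold, from 5.47 ± 0.801 (SD) to 16.8 ± 5.12 (SD). The log2 fold change was 1.62 with an SE of 0.248, at an adjusted p of 0.0439 without and 0.00595 with the block (edgeR). The call was lost in the fit without the block when DMSO replicate 1, DMSO replicate 2, 4OHT replicate 1 or 4OHT replicate 3 was left out (adjusted p = 0.105, 0.164, 0.182 and 0.143, edgeR), while the log2 fold change stayed between 1.43 and 1.85. Aldh3a1, the soluble enzyme known from the cornea and stomach (chr11:61207537-61218421), had 5, 9 and 7 counts in the DMSO libraries and 46, 34 and 163 counts in the 4OHT libraries. Its groups did not overlap at 0.139, 0.245 and 0.227 CPM against 1.32, 0.955 and 4.1 CPM. The log2 fold change was 3.38 (SE 0.685), with an adjusted p of 0.0791 without and 0.018 with the block (edgeR). Much of its size came from 4OHT replicate 3, without which the log2 fold change was 2.46.

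In the same class, Aldh3b1, which lies in 1 group of neighbours with Aldh3b3 and Aldh3b2 and acts on lipid-derived aldehydes, had 18.1, 17.4 and 30.5 CPM in DMSO and 15.3, 12.7 and 21.8 CPM in 4OHT. Its groups overlapped because both replicate 3 libraries were high, but each 4OHT library was below the DMSO library of the same number. It fell with the block only (log2 fold change -0.39, adjusted p = 0.0409, edgeR, against 0.549 without). In the fit without the block its log2 fold change of -0.40 was -0.098, -0.24 and -0.65 when DMSO replicate 3, 4OHT replicate 2 or 4OHT replicate 3 was left out. Aldh3a2, the fatty aldehyde dehydrogenase of the endoplasmic reticulum, was the most abundant of the class per kilobase (32.4 CPM per kilobase) and had a log2 fold change of -0.11 (SE 0.253), which turned positive at 0.2 without DMSO replicate 3. Aldh3b3 had 6 to 28 counts in a library and a log2 fold change of -0.01 (SE 0.6).

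**Figure D3:**
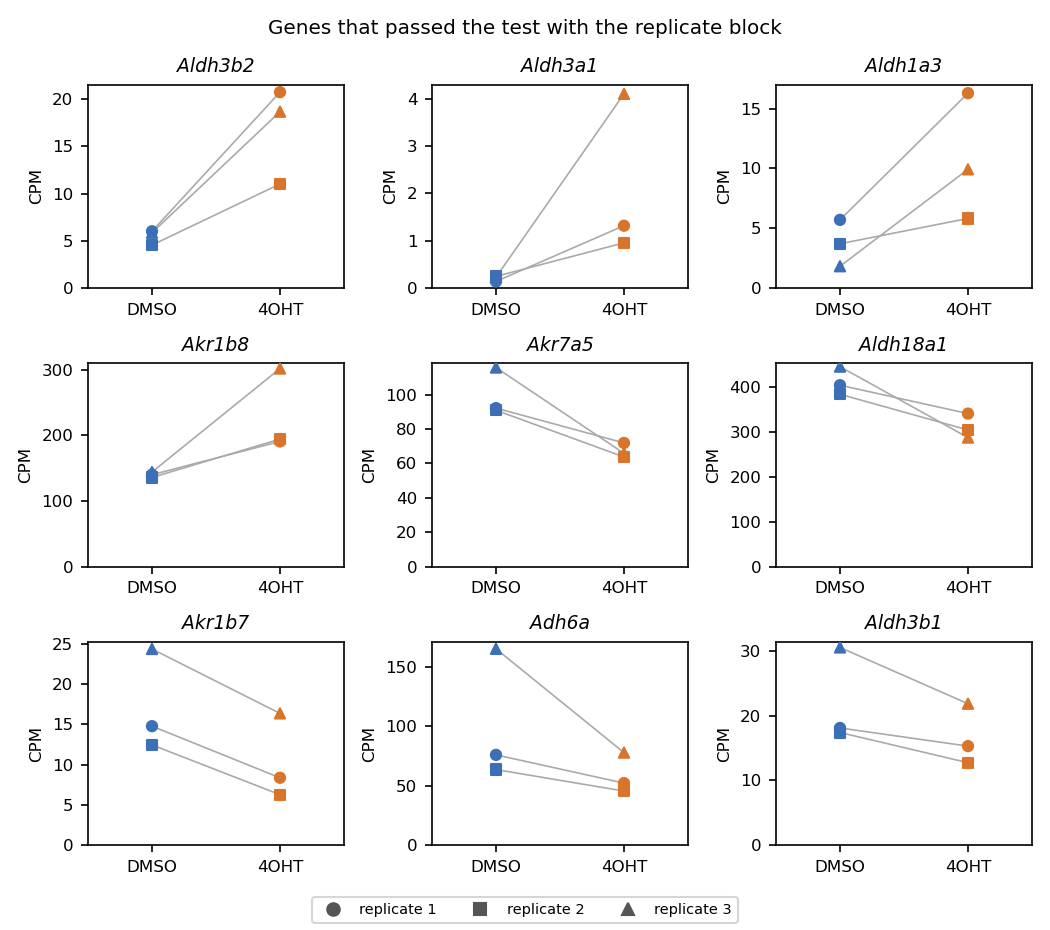
CPM in every library for the 9 genes that passed the test with the replicate block, one panel per gene with an axis from 0, blue for DMSO, orange for 4OHT, a marker shape per replicate number and grey lines joining the same number. All 3 lines climb for Aldh3b2, Aldh3a1, Aldh1a3 and Akr1b8 and all 3 descend for the other 5 genes, while the groups overlap for Akr1b7, Adh6a and Aldh3b1.

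Among the Aldh1 and Aldh2 class, which includes the enzymes that turn retinaldehyde into retinoic acid, Aldh1a3 rose with the block and the abundant mitochondrial Aldh1b1 was lower in every 4OHT library. Aldh1a3, a retinaldehyde dehydrogenase at chr7:66390890-66427517, had 5.7, 3.7 and 1.82 CPM in DMSO and 16.3, 5.82 and 9.92 CPM in 4OHT. The lowest 4OHT library was just above the highest DMSO library, and the mean ratio was 2.86 (log2 fold change 1.5, SE 0.481, adjusted p = 0.212 without and 0.0473 with the block, edgeR). Aldh1b1 had 598.4, 647.1 and 940.2 CPM in DMSO and 508.7, 425.5 and 477.5 CPM in 4OHT. The groups did not overlap, yet the difference passed neither fit (log2 fold change -0.63, SE 0.174, adjusted p = 0.155 and, with the block, 0.0564, edgeR). DESeq2 gave it an adjusted p of 0.0113. Without DMSO replicate 3, its highest library, the log2 fold change of Aldh1b1 was -0.41. Aldh1l1, a folate enzyme that oxidises 10-formyltetrahydrofolate, also did not overlap between groups (log2 fold change -0.41, SE 0.155, adjusted p = 0.28, edgeR). Aldh2, which clears acetaldehyde, had -0.21 (SE 0.16). Without DMSO replicate 3 these values were -0.22 for Aldh1l1 and -0.026 for Aldh2. Aldh1a7, a close copy of Aldh1a1 with 91.6% coding identity to it, had -0.19 (SE 0.274), and Aldh1l2 had 0.49 (SE 0.482) at 1.2 to 4.21 CPM.

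Among the 7 Aldh genes of amino acid and other metabolism, Aldh18a1 fell with the block. This enzyme (chr19:40550257-40588463) makes the intermediate from which proline and ornithine are built. It had 403.8, 383.7 and 445.1 CPM in DMSO and 340.6, 304.1 and 287.2 CPM in 4OHT. The groups did not overlap, and the mean ratio was 0.756 (log2 fold change -0.40, SE 0.0887, adjusted p = 0.0957 without and 0.0448 with the block, edgeR). Aldh16a1, a member of the family with no settled catalytic role, had 114.8 to 139.8 CPM in DMSO and 100.3 to 105.7 CPM in 4OHT, also without overlap (log2 fold change -0.27, SE 0.0819, adjusted p = 0.187, edgeR). Aldh4a1, which breaks down proline, was the 1 gene of the class whose 4OHT libraries were all higher, at 4.48 to 4.95 against 2.47 to 3.97 CPM, with a log2 fold change of 0.47 (SE 0.198, adjusted p = 0.335, edgeR). It is named after its values were seen, and 35.5% of its 50-base stretches were shared with Gm21969, which overlaps it on the same strand. Aldh9a1, Aldh5a1, Aldh6a1 and Aldh7a1 had log2 fold changes of -0.29 to 0.17, with overlapping groups, and that of Aldh9a1, the lowest, was -0.085 without DMSO replicate 3.

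In the group of Akr1a, Akr1b, Akr1e and Akr7 genes, Akr1b8 rose and Akr7a5 and Akr1b7 fell with the block. Akr1b8, a reductase of retinaldehyde and lipid aldehydes (chr6:34354119-34368463), had 140, 135.8 and 144.1 CPM in DMSO and 190.7, 194.3 and 301.8 CPM in 4OHT. The groups did not overlap, and the mean rose 1.64-fold (log2 fold change 0.71, SE 0.175, adjusted p = 0.123 without and 0.0367 with the block, edgeR). 4OHT replicate 3 was the highest library, and without it the log2 fold change was 0.46. Akr7a5, an aldehyde reductase that acts on succinic semialdehyde and aflatoxin dialdehyde (chr4:139310744-139318426), had 92.1, 90.9 and 115.7 CPM in DMSO and 71.9, 63.7 and 65.8 CPM in 4OHT. All 4OHT libraries were lower, at 0.674 of the DMSO mean (log2 fold change -0.57, SE 0.105, adjusted p = 0.0655 without and 0.0257 with the block, edgeR). It passed without the block as well when DMSO replicate 3 was left out (adjusted p = 0.0243, edgeR).

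Akr1b7, a reductase of lipid aldehydes first described in the vas deferens, had 14.8, 12.4 and 24.3 CPM in DMSO and 8.36, 6.27 and 16.3 CPM in 4OHT. The groups overlapped only through 4OHT replicate 3, which was above DMSO replicates 1 and 2, and every 4OHT library was below its own pair. With the block it fell by 0.78 on the log2 scale (adjusted p = 0.0182, against 0.444 without, edgeR). In the fit without the block its log2 fold change of -0.73 was -0.40, -0.47 and -1.23 when DMSO replicate 3, 4OHT replicate 2 or 4OHT replicate 3 was left out. Part of the Akr1b7 transcript, 348 bases, overlaps Gm13857 on the opposite strand, and the strand setting of the counting is not given in the sources used here. Akr1b3, the aldose reductase that makes sorbitol from glucose, was higher in all 3 4OHT libraries (79.5 to 85.1 against 54.8 to 67.1 CPM; the log2 fold change was 0.38, its SE 0.0878 and the adjusted p 0.108 and, with the block, 0.0524, edgeR). Akr1b10 was likewise higher in all 3 (10.4 to 11 against 7.15 to 8.65 CPM; the log2 fold change was 0.42, its SE 0.105 and the adjusted p 0.126 and 0.0536). DESeq2 called both (adjusted p = 0.0158 and 0.038). Akr1a1, the most abundant reductase of the group, had 467.8, 484.3 and 545.4 CPM against 469.9, 458.6 and 485.1 CPM, a log2 fold change of -0.08 (SE 0.0753). Akr1e1 had -0.16 (SE 0.103).

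The 4 Akr1c genes, relatives of the hydroxysteroid dehydrogenases, passed in neither fit. Their log2 fold changes ran from -1.01 to -0.15, all negative, with overlapping groups. Akr1c13 had 172.2, 171.8 and 286.6 CPM in DMSO and 163.3, 172.5 and 226.9 CPM in 4OHT. DMSO replicate 3 was the highest library for each of the 4. Akr1c14, which reduces dihydrotestosterone and other 3-ketosteroids, had 3.56, 6.02 and 26.6 CPM in DMSO and 3.89, 5.65 and 8.23 CPM in 4OHT. The difference of Akr1c14 thus rested on 1 library, and without DMSO replicate 3 its log2 fold change went from -1.01 to 0.31. The same omission turned Akr1c13, Akr1c12 and Akr1c19 to 0.12, 0.033 and 0.32. It keeps 4OHT replicate 3, which was above the mean of 4OHT replicates 1 and 2 for all 4 genes. With both replicate 3 libraries left out, Akr1c13 was -0.042 and Akr1c12 -0.070. Akr1c12 and Akr1c19 were lower with 4OHT in all 3 pairs.

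Alcohol dehydrogenases had the lowest median log2 fold change of the 8 groups, -0.57, and all 5 were negative. The size of the median rested on DMSO replicate 3, as did the sign of Adh1. Without that library Adh1 had 0.35, while Adh4, Adh5 and Adh6a stayed negative at -0.078, -0.068 and -0.26. For Adh7 the value without that library was not read. Adh7 had 0.75 and 0.708 CPM in DMSO replicates 1 and 2, and 0.859, 0.59 and 1.56 CPM in 4OHT. Leaving out DMSO replicate 3 keeps 4OHT replicate 3, which was above the mean of 4OHT replicates 1 and 2 in 4 of the 5 genes. With both replicate 3 libraries left out, Adh1 was 0.12, and Adh4 and Adh6a stayed negative. Adh6a fell with the block, and none of the 5 passed without it. Adh6a (chr3:138313286-138331134) had 75.9, 63.6 and 165 CPM in DMSO and 52.2, 45.5 and 77.8 CPM in 4OHT. Each 4OHT library was below its pair, though 4OHT replicate 3 was above DMSO replicates 1 and 2 (log2 fold change -0.71, adjusted p = 0.0318 with the block, and -0.79, SE 0.379, adjusted p = 0.388 without, edgeR). Leaving out DMSO replicate 3 alone took the log2 fold change of Adh6a to -0.26. With both replicate 3 libraries left out, Adh6a fell by 0.52 on the log2 scale without the block (adjusted p = 0.0416, edgeR).

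Adh1, the main class I enzyme that oxidises ethanol and retinol, had 120, 115.3 and 434.9 CPM in DMSO and 154.5, 102.8 and 192.9 CPM in 4OHT. DMSO replicate 3 was the highest library, and the log2 fold change was -0.57 (SE 0.535, adjusted p = 0.672, edgeR). Adh4, the class II enzyme whose promoter holds the HNF4-type letters printed above, had 5.25, 4.85 and 28.3 CPM in DMSO and 3.58, 3.54 and 7.23 CPM in 4OHT. All 3 pairs were lower with 4OHT, but the groups overlapped and neither fit called it (log2 fold change -1.41, SE 0.726, adjusted p = 0.423 and, with the block, 0.104, edgeR). Without both replicate 3 libraries and with the block, Adh4 fell by 0.51 (adjusted p = 0.0206, edgeR). Adh5, the formaldehyde dehydrogenase found in every tissue, had 97.7 to 117.1 CPM in DMSO and 90.7 to 103.2 CPM in 4OHT (log2 fold change -0.14, SE 0.0857), and Adh7, a class IV enzyme of the stomach named after its values were seen, had 0.59 to 3.02 CPM in all libraries.

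None of the 8 tested retinol dehydrogenases passed either fit. Rdh10, the enzyme that makes retinaldehyde in the embryo, had the highest level of the group (50.2 CPM per kilobase), at 249.6, 198.8 and 97.6 CPM in DMSO and 283.7, 206.9 and 215.6 CPM in 4OHT. DMSO replicate 3 was the lowest library here, unlike in most genes of the set, and the log2 fold change was 0.37 (SE 0.317, adjusted p = 0.643, edgeR) and 0.063 without that library. Rdh11, a reductase of retinaldehyde, had 121.2, 125.4 and 164.4 CPM against 117.3, 126.8 and 122.2 CPM (log2 fold change -0.17, SE 0.118, and -0.021 without DMSO replicate 3). Rdh13, a mitochondrial member, had the smallest SE of the set, at 30.2 to 31.4 CPM in all 6 libraries (log2 fold change -0.01, SE 0.057). Rdh7, named after its values were seen, had 15.4, 11.1 and 43.1 CPM in DMSO and 11.4, 7.45 and 12.5 CPM in 4OHT. It was lower in all 3 pairs, and its groups overlapped (log2 fold change -1.14, SE 0.502, adjusted p = 0.348 and, with the block, 0.0933, edgeR). Rdh5, also named after its values were seen, was the 1 retinol dehydrogenase with groups that did not overlap, at 1.63 to 1.75 against 1.54 to 1.6 CPM, with a log2 fold change of -0.12 (SE 0.151). Bloc1s1 shared 16.3% of the 50-base stretches of Rdh5. Rdh1, Rdh14 and Rdh16 had log2 fold changes of -0.08 to 0.14.

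The 8 Dhrs rows likewise passed in neither fit. Dhrs4, a peroxisomal reductase of retinaldehyde and other carbonyls, had 142.2, 152.8 and 204 CPM in DMSO and 131, 119.8 and 127.1 CPM in 4OHT. The groups did not overlap (log2 fold change -0.40, SE 0.133, adjusted p = 0.228 and, with the block, 0.0862, edgeR). Dhrs7b, which takes part in ether lipid synthesis, also did not overlap, at 44.7 to 48.7 against 39.7 to 41.3 CPM, with a log2 fold change of -0.19 (SE 0.0599, adjusted p = 0.2, edgeR). Dhrs11 and Dhrs1 had log2 fold changes of -0.50 (SE 0.343) and -0.28 (SE 0.239) and were lower with 4OHT in all 3 pairs, with overlapping groups. Without DMSO replicate 3 these values were -0.040 and -0.017, and that of Dhrs4 was -0.23. That omission keeps 4OHT replicate 3, the highest 4OHT library for Dhrs11 and Dhrs1. The differences of pairs 1 and 2 were -0.22 and -0.33 for Dhrs11 and -0.080 and -0.30 for Dhrs1, on the log2(CPM + 0.5) scale. With both replicate 3 libraries left out and the block, Dhrs1, Dhrs11 and Dhrs4 were among the 14 genes that fell (28%, against 8.16% of all tested genes). The other 4 rows, Dhrs7, Dhrs9, Dhrs13 and the antisense RNA Dhrs13os, had values of 0.02 to 0.32. Exons of Dhrs13os overlap those of Dhrs13 and Phf12 on the opposite strand over 914 bases, so with the strand setting unknown its counts may hold reads of either gene.

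Position in the genome was not used to choose the genes, and 26 of the 52 lay in 8 groups of neighbours with gaps of at most 200 kb. The Akr1b group (chr6:34302434-34423142) held Akr1b3, Akr1b8, Akr1b10 and Akr1b7 in that order. The first 3 were higher with 4OHT in all 3 pairs, and the fourth, Akr1b7, was lower in all 3. In the Aldh3b group (chr19:3913491-3981646) Aldh3b2 was higher in all 3 pairs and Aldh3b1 lower in all 3. The Adh group (chr3:138217760-138455499) and the Akr1c group (chr13:4049011-4279433) held the 5 alcohol dehydrogenases and the 4 Akr1c genes described above.

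Ratios of neighbours within a library do not depend on how libraries are scaled. The ratio of Akr1b8 to Akr1b7 was 9.49, 10.9 and 5.92 in the DMSO libraries and 22.8, 31 and 18.5 in the 4OHT libraries. All 4OHT ratios were higher, a difference of 1.47 on the log2 scale (exact permutation test, two-sided, p = 0.1, the smallest that 3 against 3 can give). The ratio of Aldh3b2 to Aldh3b1 was 0.332, 0.261 and 0.192 in DMSO and 1.36, 0.865 and 0.855 in 4OHT, again with no overlap (difference 1.97 on the log2 scale, exact permutation p = 0.1). These 4 genes were paired after their values were seen, as were Akr1b8 with Akr1b3 (exact permutation p = 0.3) and Aldh3a1 with Aldh3a2 (exact permutation p = 0.1), so 4 ratios were tested in all and none can pass an adjusted threshold.

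**Figure D4:**
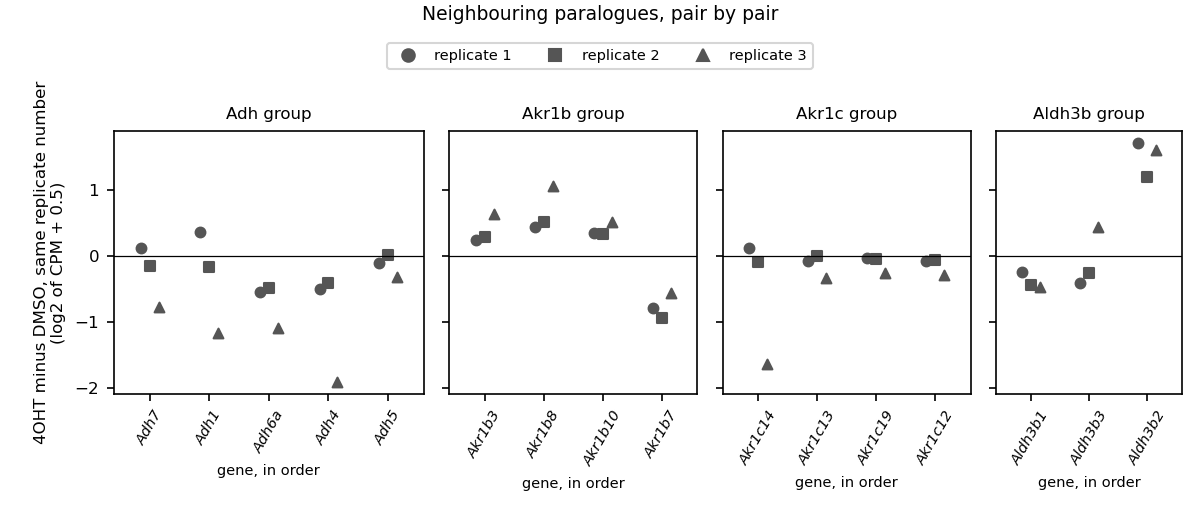
Difference of 4OHT minus DMSO between libraries of the same replicate number, on the log2(CPM + 0.5) scale, for the genes of 4 neighbouring groups in genomic order, with a marker shape per replicate number. All 3 points lie above 0 for Akr1b3, Akr1b8 and Akr1b10 and below 0 for Akr1b7, and above 0 for Aldh3b2 and below 0 for Aldh3b1. In the Adh and Akr1c groups the triangle of replicate 3 lies below the other points.

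Variation among libraries that the treatment does not account for was large in these genes. In DMSO, 41 of the 50 tested genes were higher in replicate 3 than in the mean of replicates 1 and 2, with a median difference of 0.27 on the log2(CPM + 0.5) scale, and in 4OHT 33 of 50 were higher, with a median of 0.11. Of all 14544 tested genes, 7256 were above that mean in replicate 3 of DMSO and 7196 in replicate 3 of 4OHT. The alcohol dehydrogenases had the largest such difference, a median of 1.52 in DMSO and 0.67 in 4OHT. The Akr1c genes had 0.92 and 0.59, and the Aldh3 class 0.15 and 0.63. All 17 enterocyte markers were also higher in DMSO replicate 3 (median 0.83), and 16 of 17 were higher in 4OHT replicate 3 (median 0.41). Their sum was 4694 to 8542 CPM in DMSO and 3398 to 5227 CPM in 4OHT, and all 17 had negative log2 fold changes (median -0.57), as did 35 of the 50 genes. Of the 17, 0 passed without the block (edgeR; 6 were lower at a p under 0.05 before adjustment) and 6 fell with it. Goblet markers summed to 2229 to 4201 CPM in DMSO and 3619 to 6131 CPM in 4OHT, with 6 of 7 higher with the block, and gastric or squamous surface markers to 82.7 to 108.6 and 373.7 to 590.6 CPM, with 5 of 8 higher without the block and 7 with it. The part of these cell types in the results was not tested.

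With both replicate 3 libraries left out, 7 of the 50 genes passed without the block. Akr1b3, Akr1b8, Aldh3a1 and Aldh3b2 rose (8%, against 2.59% of all tested genes), and Adh6a, Akr1b7 and Akr7a5 fell (6%, against 1.51%). With the block added, 7 rose (14%, against 10.1%) and 14 fell (28%, against 8.16%), from 4 libraries and 1 residual degree of freedom. Aldh3b2, Aldh3a1, Akr1b8, Akr7a5, Akr1b7 and Adh6a were thus called with the block in all 6 libraries and without it in the 4. The 4 libraries are part of the 6, so these calls share data and are not independent.

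**Figure D5:**
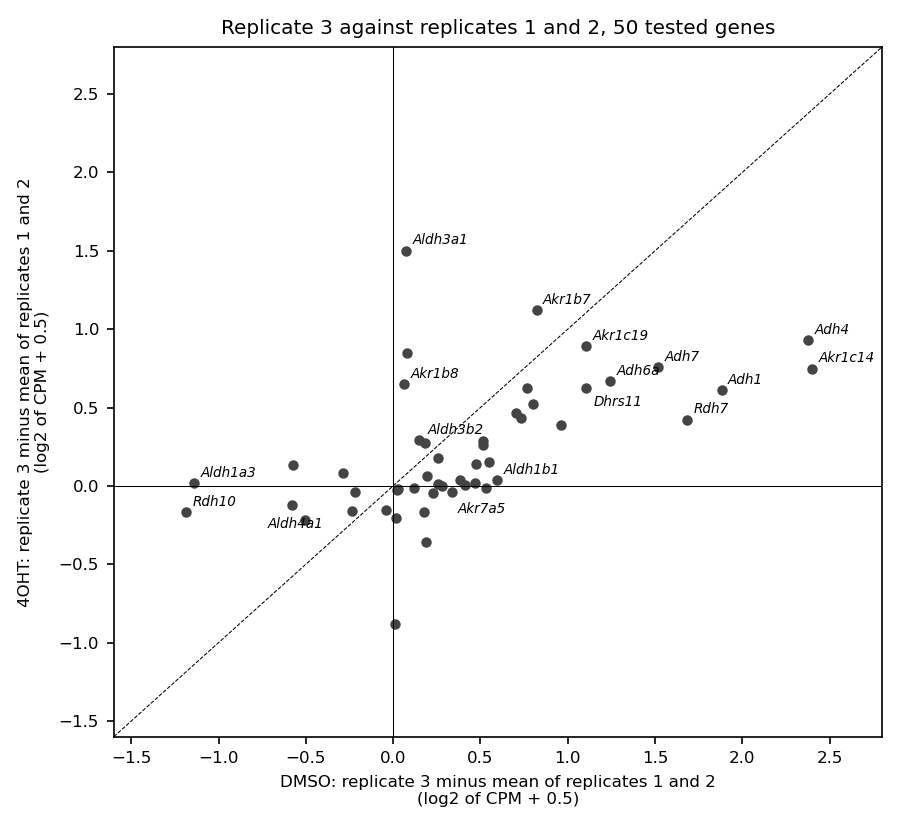
Replicate 3 minus the mean of replicates 1 and 2, on the log2(CPM + 0.5) scale, in DMSO (horizontal) and in 4OHT (vertical) for the 50 tested genes, with a dashed line where both are equal. Most points lie right of 0 and, for Adh4, Akr1c14, Adh1, Rdh7, Adh7 and Adh6a, below the dashed line, while Rdh10 and Aldh1a3 lie to the left and Aldh3a1 lies high above the line.

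Other enzymes and carriers of the same chemistry were examined for comparison. Of 21 other carbonyl and quinone enzymes tested, 0 passed without the block (edgeR; before adjustment, p was under 0.05 for 2 that were higher and 3 that were lower). With the block Cbr2, at under 1 CPM, rose (log2 fold change 1.29, adjusted p = 0.0446, edgeR) and 3 fell: Cbr1, a carbonyl reductase (-0.36, adjusted p = 0.0293), Cryl1 (-0.46, adjusted p = 0.0365) and the xanthine dehydrogenase Xdh (-0.41, adjusted p = 0.0132). In the fit without the block, leaving out DMSO replicate 3 took the log2 fold change of Cbr1 from -0.39 to -0.093, of Cryl1 from -0.48 to -0.25 and of Xdh from -0.42 to -0.26. That omission keeps 4OHT replicate 3 without its pair, and these 3 genes were lower with 4OHT in all 3 pairs. The list's median log2 fold change was -0.17. A list for NRF2, the factor that responds to electrophiles, held its own gene Nfe2l2, its inhibitor Keap1 and its targets. Of the 21 tested genes of that list, 0 passed without the block (edgeR). Before adjustment, p was under 0.05 for 2 that were higher and 1 that was lower. With the block Hmox1, Gsta4 and Nfe2l2 rose and Gstm1 fell, and the median of the list was 0.03. In the fit without the block, leaving out 4OHT replicate 3 took Gsta4 from 0.63 to 0.31 and Nfe2l2 from 0.29 to 0.17, and leaving out DMSO replicate 3 took Gstm1 from -0.46 to 0.19. Replicate 3 was the highest library of Gstm1 in both groups. Gsta4 and Nfe2l2 were higher and Gstm1 lower with 4OHT in all 3 pairs.

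Of 16 tested genes of retinoid handling, Rarg, a retinoic acid receptor, rose from 24.6 to 27.2 CPM in DMSO to 48.7 to 54.8 CPM in 4OHT (log2 fold change 0.97, SE 0.0747, adjusted p = 0.00816, edgeR). Lrat, which stores retinol as esters, fell from 2.06 to 4.09 CPM to 0.453 to 0.687 CPM, with a log2 fold change of -2.34 (SE 0.326, adjusted p = 0.0335, edgeR). Leaving out single libraries took the adjusted p of Rarg past the threshold for DMSO replicates 1 and 2 and 4OHT replicate 1 (0.0509, 0.0606 and 0.0557, edgeR), and that of Lrat for every library but DMSO replicate 3 (0.0718 to 0.138). With the block the vitamin A transporter Stra6 also rose, and Aldh1a1 and the retinol-binding protein Rbp2 fell. In the fit without the block, leaving out 4OHT replicate 1 took Stra6 from 1.59 to 0.97, and leaving out DMSO replicate 3 or 4OHT replicate 2 took Rbp2 from -0.33 to -0.22 or -0.12. Aldh1a1, the main retinaldehyde dehydrogenase of the gut, had 451.2, 377.2 and 1052 CPM in DMSO and 394.9, 264.4 and 690.4 CPM in 4OHT, with overlapping groups (log2 fold change -0.44, adjusted p = 0.0444 with the block and 0.689 without, edgeR). In the fit without the block its log2 fold change of -0.48 was 0.11 without DMSO replicate 3. That omission keeps 4OHT replicate 3, the highest 4OHT library, without its pair. Aldh1a1 was lower with 4OHT in all 3 pairs. Dhrs3, which turns retinaldehyde back to retinol, had 31, 31.2 and 59.9 CPM against 40.5, 32 and 48.4 CPM (log2 fold change -0.01, adjusted p = 0.99, edgeR).

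In the authors' deposited table, the edgeR adjusted p was under 0.05 for 7 of the 52 genes (3.65% of all 18448 rows), 4 higher and 3 lower: Aldh3b2, Aldh3a1, Aldh1a3 and Akr1b8, and Akr7a5, Aldh18a1 and Aldh1b1. In the authors' deposited table the DESeq adjusted p was under 0.05 for 2, Aldh3b2 and Akr7a5 (1.63% of all rows). All of these 7 except Aldh1b1 also passed here with the block.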

How the data were processed

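RNA of mouse jejunal organoids was sequenced as 6 libraries after poly(A) selection with a directional library kit, per the labels' protocols. STAR 2.4.0f1, bcl2fastq 1.8.4 and GRCm38 are named in the submitters' processing notes, and the program that counted reads, its strand setting and its treatment of multiply mapped reads are not given in the sources used here. The authors deposited raw counts per gene for 18448 genes, per the file headers. The authors also deposited a normalised score per gene, unused here, and log2 fold changes and p-values, the last 2 shown only where the authors' table is named.

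Counts were tested in R 4.3.3 with edgeR 4.0.16: filterByExpr kept 14544 genes and removed 3904, with at least 99.95% of counts kept in each library, libraries were scaled by TMM, and the 2 groups were compared by the two-sided quasi-likelihood F test. p-values were Benjamini-Hochberg adjusted over all 14544 genes, with a threshold of 0.05. The SE is the log2 fold change divided by the square root of F. Same-numbered libraries deviated together (correlations 0.36, 0.44 and 0.49, against -0.49 to 0.1 for different numbers), so the replicate number was also fitted as a block. The model was tested on simulated data. The simulation drew libraries independently and planted changes larger than most reported here, so it does not test shared replicate deviations or smaller changes. DESeq2 1.42.0, limma 3.58.1 (voom), other scalings and filters, and omitted libraries were alternatives. A pseudocount of 0.5 CPM was used for differences between libraries.

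The genes and lists were chosen with earlier results of these data known. Genes are named if they passed without or with the block, were among the 12 highest per kilobase or the 12 smallest p, or were the next 2 by CPM of their group; others are said to be named after their values were seen or are given only by group. Lengths and coordinates are from GENCODE M21 (GRCm38), promoters from RefSeq. Comparison and marker lists were adjusted over all genes only, and 5 genes of the carbonyl list and 3 of the retinoid list were not analysed here.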

Additional observations from a re-analysis of the deposited data

How the results depend on the processing

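The number of the 50 genes called was 1 in the reported fit and with DESeq2's size factors or no filter. It was 9 with the replicate block (4 higher, 5 lower), 9 with DESeq2 (6 higher, 3 lower), 2 with library totals alone (1 lower), 0 with limma-voom (0 higher) and 0 with a filter at 10 CPM in 3 libraries (0 higher). Over all genes the last 2 called 123 and 56, against 132 in the reported fit. With both replicate 3 libraries left out it was 7 (4 higher, 3 lower), and with the replicate block added 21 (7 higher, 14 lower). Leaving out 1 library at a time gave 0 to 2 called, 0 to 1 higher and 0 to 1 lower, beside 4 to 340 of all genes, and a median log2 fold change of -0.22 to 0.0013. The cause was not tested.

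Gene by gene, the 6 omissions were read only for genes named by rule, Hnf4a, Aldh1a1, Dhrs3 and comparison genes that passed either fit. Sign changes of other genes, such as any of Adh7 or Dhrs7, are therefore not listed. Over the 6 omissions the log2 fold changes that changed sign ran from -0.32 to 0.12 for Akr1c13, -0.26 to 0.033 for Akr1c12, -0.51 to 0.32 for Akr1c19, -1.45 to 0.31 for Akr1c14, -0.89 to 0.35 for Adh1, -0.37 to 0.20 for Aldh1a7, -0.20 to 0.078 for Aldh6a1, -0.22 to 0.80 for Aldh1l2, -0.31 to 0.20 for Aldh3a2, -1.06 to 0.32 for Aldh3b3, -0.93 to 0.11 for Aldh1a1, -0.18 to 0.37 for Dhrs3 and -1.01 to 0.19 for Gstm1. With both replicate 3 libraries left out, without and with the block, Adh1 was 0.12 and 0.097, Aldh1a7 0.060 and 0.060, Aldh6a1 0.027 and 0.027, Aldh3a2 0.0045 and 0.0045, Rdh13 0.0028 and 0.0028, and Dhrs3 0.21 and 0.21. Dhrs3 was 0.033 with the block and 0.058 with limma-voom. None of these passed the threshold. Depth limits Aldh3a1, Aldh3b3, Rdh1, Rdh9, Rdh12 and Rdh16, which had under 10 counts in some libraries.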
